A study of Danio rerio with 12 samples.

Results

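The effect of beclomethasone on macrophages in the absence of a wound was examined by comparing 3 Beclo with 3 Control libraries, which are 6 of the 12 libraries of the series. These libraries were chosen by their labels alone, as drug-treated or vehicle-treated larvae with an intact tail, and no measured value entered the choice. Beclo larvae received beclomethasone, a synthetic glucocorticoid, at 25 µM, starting 2 h before the time at which the other larvae were wounded, and Control larvae received the vehicle, 0.05% DMSO. All larvae were at 3 dpf and carried the Tg(mpeg1.4:mCherry-F) transgene, in which a promoter fragment of the macrophage gene mpeg1 drives a red fluorescent protein. Red cells were sorted by FACS at the time that corresponds to 4 hpa in the wounded groups, from a pool of 100 to 150 embryos per sample, and 3 replicate experiments were performed. Actinomycin D, an inhibitor of transcription, was present from dissociation onwards in every group. The remaining 6 libraries come from larvae of the same line with an amputated tail, 3 with the drug (Amp+Beclo) and 3 with the vehicle (Amp), and serve here to set the drug effect beside that in intact larvae.

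Glucocorticoids bind the glucocorticoid receptor, a nuclear receptor that is held in the cytoplasm by heat shock proteins and their co-chaperones. The ligand-bound receptor moves to the nucleus, where it raises the transcription of genes with its binding elements and represses genes driven by factors such as AP-1 and NF-κB. In macrophages this receptor is known for lowering cytokine and chemokine production, for raising genes that inhibit inflammatory signalling, and for supporting the uptake of dead cells. Cells also adjust to the hormone itself, through co-chaperones that lower the affinity of the receptor and enzymes that convert steroids into inactive forms.

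The 6 libraries held 11023085 to 18865019 reads on genes, and reads outside annotated genes took 7.68 to 12.6% of the total. Macrophage markers (39 genes tested, such as mpeg1) summed to 34159, 21192 and 21176 CPM in Beclo and to 24800, 31485 and 9768 CPM in Control, where CPM are read counts scaled to the TMM-normalized library size. Muscle markers (31 genes) summed to 51203, 72640 and 65238 CPM in Beclo and to 30092, 23142 and 91121 CPM in Control, and keratinocyte markers (27 genes) to 18574, 16678 and 28680 CPM in Beclo and to 11342, 10487 and 24116 CPM in Control. Transcripts of other tissues were therefore present in every library labelled as sorted macrophages. The muscle sum was above the macrophage sum in every library except Control replicate 2. It was also higher in Beclo than in Control except in replicate pair 3. The part of transcripts of other tissues was not tested for any of the genes described below. Control replicate 3 stood apart, with the lowest macrophage and the highest muscle sum of the 6, and the main count was recomputed without it. Neutrophil markers (14 genes tested) summed to at most 802 CPM in Beclo and 755 CPM in Control, and erythroid markers (18 genes) to at most 3860 CPM in Beclo and 5623 CPM in Control. None of the 129 marker genes tested for these 5 cell types was significantly regulated in edgeR, whereas 12 of them were higher and 2 lower in Beclo at an unadjusted p below 0.05, against 3.27% and 1.97% of all genes tested, and DESeq2 called 2 of them higher, against 1.02%.

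**Figure D1:**
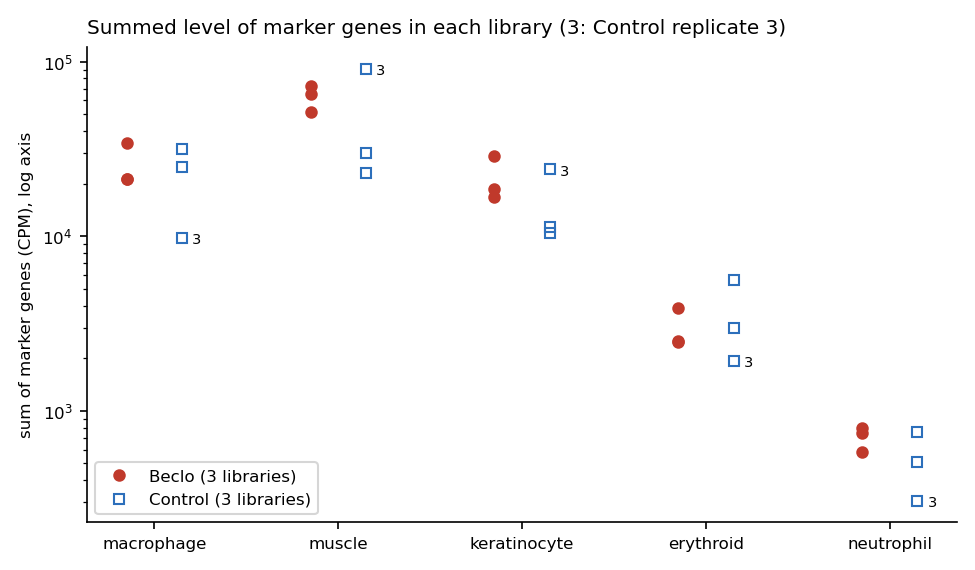
Summed level of marker genes for 5 cell types in each library (CPM, log axis), with 3 Beclo libraries as filled circles and 3 Control libraries as open squares. Control replicate 3, marked with its number, had 9768 CPM of macrophage and 91121 CPM of muscle markers.

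In the main edgeR test, a small set of genes was higher in Beclo in the unwounded larvae and a single gene was lower, and these counts varied between tests. Of the 22127 genes tested, 38 were significantly regulated (0.172% of the genes tested), of which 37 were upregulated (0.167%) and 1 was downregulated (0.00452%). Significant regulation was an adjusted p below 0.05 (edgeR's quasi-likelihood test with the replicate number as a block, Benjamini-Hochberg adjustment over all genes) together with a fold change above 2. These p-values measure the spread that remains between 3 pooled samples per group after shifts shared by same-numbered samples are removed. The log2 fold changes of the upregulated genes lay between 1.87 and 5.29 with a median of 2.80, which corresponds to 3.67-fold to 39.1-fold with a median of 6.95-fold, and the median over all genes tested was -0.04. In all 38 genes the Beclo and Control libraries did not overlap, so the difference had the same direction in the 3 replicate pairs. Of all genes tested, 9.97% had groups that did not overlap. As the test that selected the 38 genes used these same libraries, this separation is no independent support for them. At an unadjusted p below 0.05, 1159 genes differed (5.24%), of which 723 were higher in Beclo (3.27%) and 436 were lower (1.97%). DESeq2 called 241 genes (1.09%), of which 226 were upregulated (1.02%) and 15 were downregulated (0.0678%). The number of regulated genes was 6 without replicate 1, 74 without replicate 2 and 100 without replicate 3, and it was 61 without Control replicate 3 alone, in a fit without the block. Of the 38 genes, 6 passed the threshold without replicate 1 (kif9, SELE, f5, RHCG, hsd20b2 and TG), 28 without replicate 2, 33 without replicate 3 and 37 without Control replicate 3 alone, POR being the gene lost in this last fit. As RNA of pooled sorted cells was measured, fewer cells of a type and less RNA per cell cannot be told apart.

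**Figure D2:**
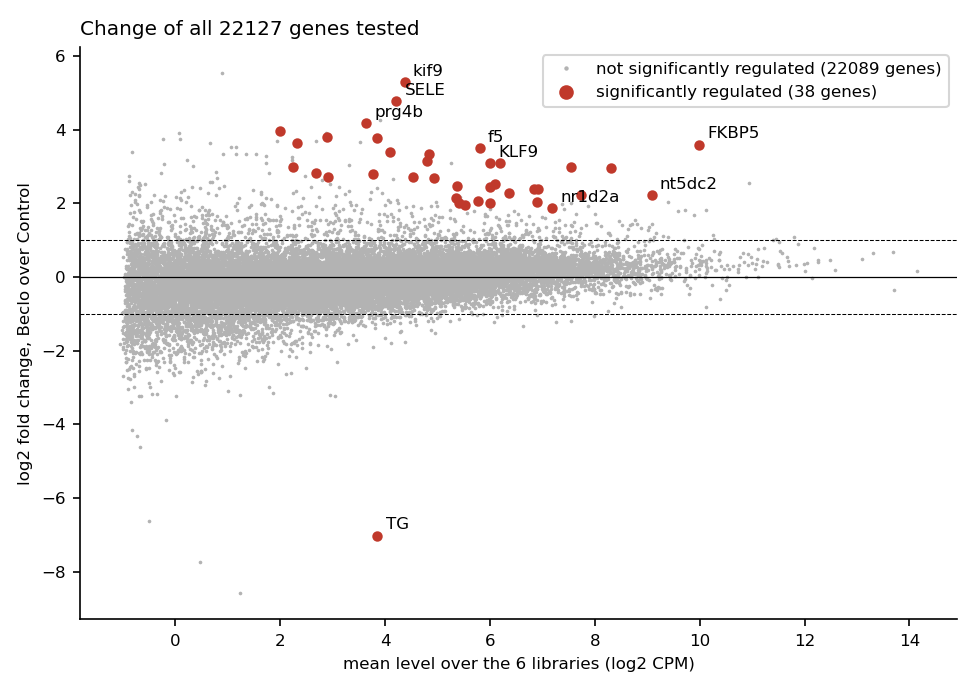
Log2 fold change of Beclo over Control (vertical axis) against the mean level over the 6 libraries (log2 CPM, horizontal axis) for the 22127 genes tested. The 38 significantly regulated genes are large points, 37 of them above the dashed line of a 2-fold rise, and TG stands alone below the line of a 2-fold fall.

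**Figure D3:**
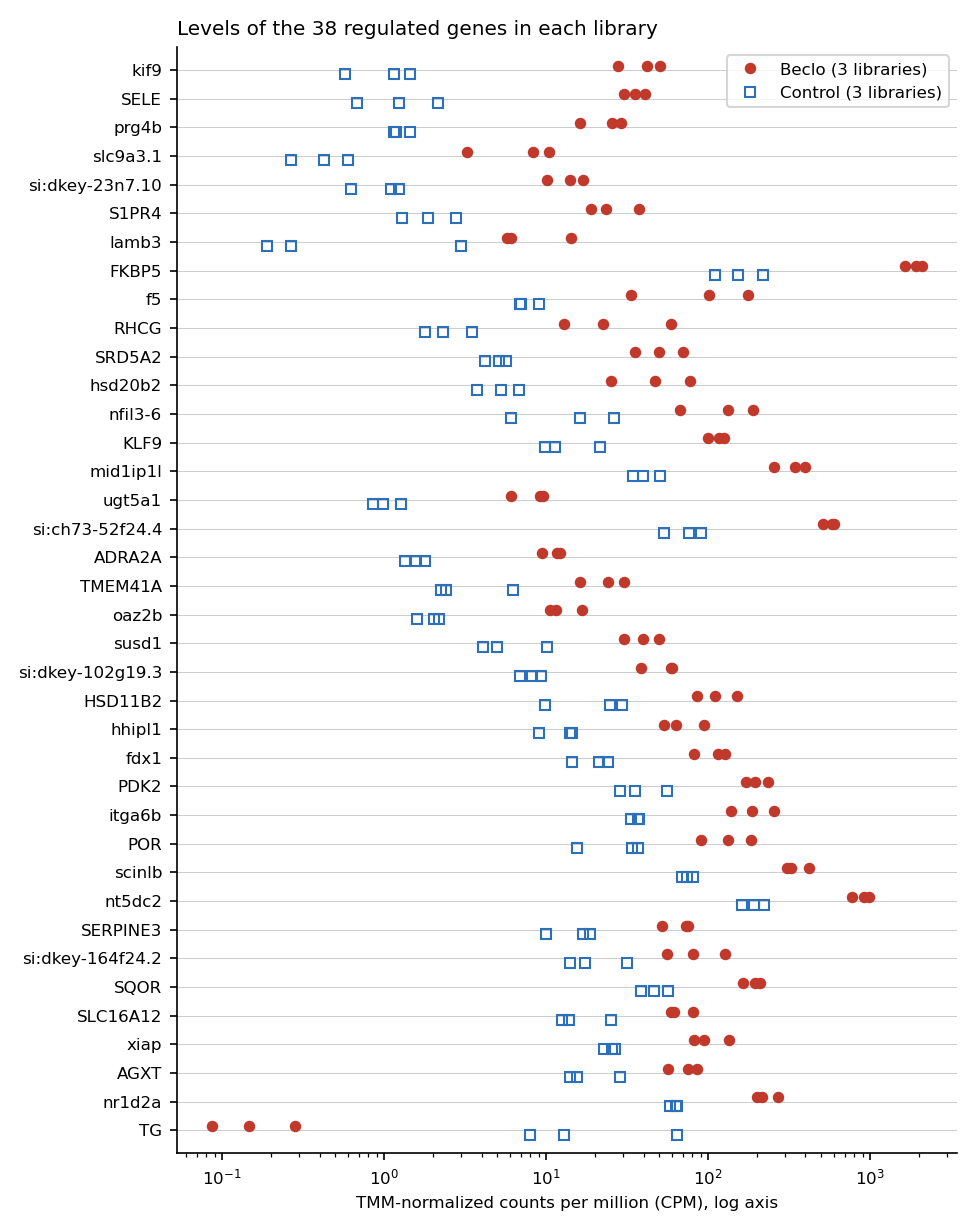
Level of the 38 significantly regulated genes in each library (CPM, log axis), ordered by log2 fold change, with Beclo as filled circles and Control as open squares. In each row the 3 Beclo libraries lie on one side of the 3 Control libraries, to the right for 37 genes and to the left for TG.

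The genes of the receptor system came first. The receptor gene itself, NR3C1, did not pass the threshold. It was at 69.4, 72.7 and 50.0 CPM in Beclo and at 96.7, 97.8 and 76.7 CPM in Control, with every Beclo library below every Control library (log2 fold change -0.51, SE 0.31, adjusted p = 0.96). FKBP5 encodes a co-chaperone that lowers the affinity of the receptor for its ligand. Its level was 2083, 1636 and 1924 CPM in Beclo, against 219, 154 and 111 CPM in Control. The lowest Beclo library thus lay far above the highest Control library, and the rise was 12-fold (log2 fold change 3.59, SE 0.40, adjusted p = 0.0037, edgeR). Without replicate 1 the log2 fold change was 3.76 with an adjusted p of 0.32. HSD11B2, the enzyme that inactivates cortisol, had 111, 85.8 and 151 CPM in Beclo and 25.0, 9.90 and 29.6 CPM in Control (log2 fold change 2.53, SE 0.35, adjusted p = 0.012). The list of receptor, chaperone and coregulator genes, which also held HSD11B2 and hsd11b1la, had 23 genes tested. Of these, FKBP5 and HSD11B2 were upregulated, against 0.167% of all genes tested. None was downregulated and 21 did not pass the threshold. At an unadjusted p below 0.05, 4 were higher and 1 was lower in Beclo, against 3.27% and 1.97% of all genes tested. DESeq2 called 2 of the list upregulated, against 1.02% of all genes tested. The median log2 fold change of this list was 0.07, against -0.04 over all genes tested. HSPA8 (ENSDARG00000068992), the heat shock cognate that assists folding of the receptor, was at 5992, 3996 and 7058 CPM in Beclo and 4006, 4100.1 and 4355 CPM in Control, so that the groups overlapped. Chosen after their values were seen, the chaperone gene hsp90aa1.1 (log2 fold change 1.08, adjusted p = 0.44) and the co-chaperone gene PTGES3 (ENSDARG00000037284, 1.03, adjusted p = 0.53) were higher in every Beclo library than in any Control library without passing the threshold. A second gene with the symbol PTGES3, ENSDARG00000089626, also chosen after its values were seen, had a log2 fold change of 0.13 (adjusted p = 0.97, edgeR).

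Beyond HSD11B2, 5 further upregulated genes encode proteins that handle steroids or deliver electrons to the enzymes that do. They were grouped after their values were seen. SRD5A2 is a steroid reductase, known from mammals for the conversion of testosterone, and had 49.9, 35.3 and 70.6 CPM in Beclo against 5.65, 4.19 and 5.10 CPM in Control. These groups were far apart (log2 fold change 3.33, SE 0.37, adjusted p = 0.0037, edgeR). The gene hsd20b2 encodes a hydroxysteroid dehydrogenase that acts on cortisone in zebrafish, and its levels were 25.1, 77.5 and 47.3 CPM in Beclo and 6.79, 5.26 and 3.74 CPM in Control. Beclo replicate 1 was the lowest of its group but lay above all Control libraries (log2 fold change 3.14, SE 0.46, adjusted p = 0.018), and without replicate 1 the log2 fold change was 3.77. The gene ugt5a1, of the glucuronosyltransferases that conjugate steroids and drugs, was low throughout, at 6.12, 9.12 and 9.63 CPM in Beclo and 0.855, 0.981 and 1.27 CPM in Control (log2 fold change 2.97, SE 0.48, adjusted p = 0.031). Ferredoxin, encoded by fdx1, passes electrons to the mitochondrial cytochrome P450 enzymes. It was at 127, 81.6 and 115 CPM in Beclo and at 21.4, 14.4 and 24.3 CPM in Control (log2 fold change 2.44, SE 0.33, adjusted p = 0.010). POR, the electron donor of the microsomal cytochrome P450 enzymes, had 133, 90.4 and 186 CPM in Beclo and 36.9, 15.6 and 34.1 CPM in Control (log2 fold change 2.28, SE 0.33, adjusted p = 0.018). In this group the smallest fitted rise was that of POR, at 4.84-fold, and the largest that of SRD5A2, at 10.1-fold.

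Among the upregulated genes, KLF9, nfil3-6 and nr1d2a encode transcription factors and were placed together after their values were seen. KLF9 encodes a Krüppel-like factor known in mammals as a direct target of the receptor, and was at 99.5, 117 and 126 CPM in Beclo and at 21.6, 9.90 and 11.3 CPM in Control. All Beclo libraries were close to each other and above the Control range (log2 fold change 3.08, SE 0.39, adjusted p = 0.0071, edgeR). The gene nfil3-6 belongs to the NFIL3 family of leucine zipper repressors, which act in the output of the circadian clock. It varied more within the groups, with 67.4, 189.9 and 134 CPM in Beclo and 16.2, 26.4 and 6.12 CPM in Control (log2 fold change 3.08, SE 0.46, adjusted p = 0.020), and without replicate 3 its log2 fold change was 2.45. A copy of the REV-ERB beta gene, nr1d2a, whose mammalian counterpart represses clock genes, had 199, 215 and 270.4 CPM in Beclo and 57.9, 64.1 and 63.4 CPM in Control. This was the smallest called rise of all, with little spread in either group (log2 fold change 1.87, SE 0.32, adjusted p = 0.044).

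Of the 39 clock genes tested, nr1d2a and nfil3-6 were upregulated, against 0.167% of all genes tested. None was downregulated and 37 did not pass the threshold. The median log2 fold change of the list was 0.42, with 26 of the 39 genes above 0, against a median of -0.04 and 47.3% above 0 over all genes tested. At an unadjusted p below 0.05, 11 clock genes were higher in Beclo and 1 was lower, against 3.27% and 1.97% of all genes tested. DESeq2 called 6 genes of the list upregulated and 0 downregulated, against 1.02% and 0.0678% of all genes tested. The genes of this list named next were chosen after their values were seen. PER2, a component of the negative limb of the clock, was at 68.2, 51.1 and 85.3 CPM in Beclo and at 31.3, 8.02 and 13.0 CPM in Control, and came close to the threshold (log2 fold change 2.16, SE 0.40, adjusted p = 0.062 in edgeR and 1.9e-05 in DESeq2). NR1D1, the REV-ERB alpha gene, had a log2 fold change of 1.5 (adjusted p = 0.31 in edgeR and 0.018 in DESeq2) with groups that did not overlap. CRY1 (ENSDARG00000045768) was higher in Beclo in each pair, at a log2 fold change of 1.31 (adjusted p = 0.27 in edgeR and 0.016 in DESeq2), but its groups overlapped.

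Several upregulated genes encode surface, matrix or coagulation proteins, a grouping that was also made after their values were seen. SELE, the gene of E-selectin, an adhesion molecule that in mammals binds leukocytes at the vessel wall, was at 35.7, 30.2 and 40.8 CPM in Beclo and at 1.23, 2.14 and 0.680 CPM in Control. The gap between the groups was wide, and the fitted rise was 27.4-fold (log2 fold change 4.78, SE 0.49, adjusted p = 0.0027, edgeR). The proteoglycan gene prg4b, related to the lubricin of joints, had 25.4, 28.9 and 16.2 CPM in Beclo and 1.19, 1.16 and 1.44 CPM in Control (log2 fold change 4.18, SE 0.45, adjusted p = 0.0037). S1PR4 encodes a receptor for sphingosine 1-phosphate that mammalian blood cells carry, and its levels were 23.5, 18.9 and 37.8 CPM in Beclo and 1.28, 2.76 and 1.87 CPM in Control (log2 fold change 3.76, SE 0.46, adjusted p = 0.0067). Coagulation factor V, encoded by f5, was at 33.7, 177 and 101 CPM in Beclo and at 6.89, 9.01 and 7.05 CPM in Control. The spread was in the Beclo group, with replicate 1 the lowest (log2 fold change 3.48, SE 0.44, adjusted p = 0.0071), and without replicate 1 the log2 fold change was 4.07. The liver, gut, pancreas and yolk markers, among which are liver genes, summed to 682, 530 and 749 CPM in Beclo and 585, 361 and 894 CPM in Control, and their part in the rise of f5 was not tested. ADRA2A, an adrenergic receptor gene, had 11.6, 9.47 and 12.2 CPM in Beclo and 1.57, 1.34 and 1.78 CPM in Control (log2 fold change 2.83, SE 0.44, adjusted p = 0.028).

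The genes lamb3 and itga6b, of a laminin chain and a laminin receptor, are described together, a choice made after their values were seen. The laminin chain gene lamb3 was at 5.75, 6.08 and 14.2 CPM in Beclo and at 0.190, 0.267 and 2.97 CPM in Control. Replicate 3 was the highest of both groups (log2 fold change 3.63, SE 0.62, adjusted p = 0.044, edgeR). The log2 fold change of lamb3 was 4.67 without replicate 3 and 5.24 without Control replicate 3 alone. Its adjusted p was 0.45 without replicate 1 and 0.12 without replicate 2. The gene itga6b encodes a copy of integrin alpha 6, a laminin receptor, and had 188, 254 and 138 CPM in Beclo against 37.3, 33.7 and 37.2 CPM in Control, where the 3 libraries were nearly equal (log2 fold change 2.38, SE 0.35, adjusted p = 0.018). Keratinocytes carry both proteins, and the keratinocyte sums were 16678 to 28680 CPM in Beclo and 10487 to 24116 CPM in Control. These ranges overlapped, but the sum was higher in Beclo in each replicate pair. Of the 27 keratinocyte markers, 18 had a log2 fold change above 0, against 47.3% of all genes tested. The keratin gene krt5, chosen after its values were seen, was at 4808, 3801 and 5793 CPM in Beclo and 1926, 1752 and 3248 CPM in Control. Its groups did not overlap (log2 fold change 1.09, SE 0.38, adjusted p = 0.69 in edgeR and 0.029 in DESeq2). The part of the keratinocyte transcripts in these rises was not tested.

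The largest rise of all was that of kif9, which encodes a kinesin, a motor protein on microtubules. It was at 27.8, 42.3 and 50.7 CPM in Beclo and at 0.570, 1.16 and 1.44 CPM in Control, a 39.1-fold rise with no overlap (log2 fold change 5.29, SE 0.42, adjusted p = 0.00048, edgeR). Membrane transporters were represented by slc9a3.1, RHCG and SLC16A12. The sodium-proton exchanger gene slc9a3.1 had few reads, at 10.4, 8.34 and 3.27 CPM in Beclo and 0.427, 0.267 and 0.595 CPM in Control (log2 fold change 3.97, SE 0.64, adjusted p = 0.031), and its log2 fold change was 4.71 without replicate 3. RHCG (ENSDARG00000003203), named for an ammonia transporter, was at 12.8, 22.5 and 59.0 CPM in Beclo and 2.33, 1.78 and 3.48 CPM in Control (log2 fold change 3.39, SE 0.44, adjusted p = 0.0091). A second gene with the symbol RHCG, ENSDARG00000100265, chosen after its values were seen, had 14.7, 8.78 and 16.5 CPM in Beclo and 2.47, 1.60 and 5.44 CPM in Control without passing the threshold in edgeR (log2 fold change 2.19, adjusted p = 0.079 in edgeR and 0.00070 in DESeq2). How the counting divided reads between near-identical copies is not given in the sources used here, so genes with such copies are uncertain. SLC16A12, which carries creatine in mammals, rose 4.05-fold (log2 fold change 2.02, adjusted p = 0.033). Transcripts of other tissues were present in every library, and their part in the rises of these transporter genes was not tested.

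Among the metabolic genes, PDK2 encodes a kinase that inhibits pyruvate dehydrogenase and so the entry of pyruvate into the citric acid cycle. Its level was 196, 172 and 234 CPM in Beclo against 35.3, 55.5 and 28.5 CPM in Control (log2 fold change 2.38, SE 0.37, adjusted p = 0.027, edgeR). The gene mid1ip1l, whose mammalian relatives regulate fatty acid synthesis, was at 345, 255 and 396 CPM in Beclo and 39.8, 50.6 and 34.6 CPM in Control (log2 fold change 2.99, SE 0.37, adjusted p = 0.0067). Both genes had Beclo libraries well above the Control range. SQOR, which oxidizes sulfide in mitochondria, rose 4.06-fold (log2 fold change 2.02, adjusted p = 0.028), and AGXT (ENSDARG00000018478), an aminotransferase that removes glyoxylate, rose 3.88-fold (log2 fold change 1.96, adjusted p = 0.040). The gene oaz2b, an antizyme that inhibits polyamine synthesis, had 16.7, 10.6 and 11.5 CPM in Beclo and 2.18, 1.60 and 2.04 CPM in Control (log2 fold change 2.72, SE 0.43, adjusted p = 0.028).

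The uncharacterized gene si:ch73-52f24.4 was at 600.4, 509.8 and 582 CPM in Beclo and at 76.4, 53.4 and 91.2 CPM in Control, with little spread in either group (log2 fold change 2.97, SE 0.35, adjusted p = 0.0061, edgeR). Likewise si:dkey-23n7.10 had 14.1, 10.1 and 16.8 CPM in Beclo and 1.23, 0.624 and 1.1 CPM in Control (log2 fold change 3.78, SE 0.46, adjusted p = 0.0067), and si:dkey-102g19.3 had 59.9, 38.4 and 58.9 CPM in Beclo and 6.89, 9.36 and 8.16 CPM in Control (log2 fold change 2.67, SE 0.37, adjusted p = 0.012). In these genes too no Beclo library reached down to the Control range. The membrane protein gene TMEM41A was at 16.2, 30.5 and 24.1 CPM in Beclo and at 2.23, 2.41 and 6.29 CPM in Control (log2 fold change 2.80, SE 0.45, adjusted p = 0.028). The sushi domain gene susd1 had 30.4, 39.9 and 49.5 CPM in Beclo and 4.99, 10.2 and 4.08 CPM in Control (log2 fold change 2.71, SE 0.41, adjusted p = 0.022). A relative of the hedgehog-binding proteins, hhipl1, had 63.7, 93.9 and 53.5 CPM in Beclo and 14.1, 14.5 and 9.01 CPM in Control (log2 fold change 2.48, SE 0.34, adjusted p = 0.011). The remaining upregulated genes were scinlb, which is related to actin-severing proteins, nt5dc2, SERPINE3, si:dkey-164f24.2 and xiap, an inhibitor of caspases, with rises of 4.04-fold to 4.66-fold and adjusted p between 0.019 and 0.040. Of these, nt5dc2 was at 986, 775 and 918 CPM in Beclo and 223, 192 and 163 CPM in Control, and scinlb was at 307, 326 and 421 CPM in Beclo and 69.2, 74.4 and 80.9 CPM in Control.

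TG (ENSDARG00000020084), the thyroglobulin gene, was the downregulated gene. It had 2, 1 and 3 reads in the Beclo libraries and 167, 145 and 760 reads in the Control libraries, so that the groups were far apart and Control replicate 3 held most of the reads. In CPM this is 0.147, 0.0869 and 0.280 in Beclo against 7.93, 12.9 and 64.6 in Control (log2 fold change -7.02, SE 0.59, adjusted p = 0.00048, edgeR). From the 6 reads in Beclo and the 1072 reads in Control, scaled to the depth of the libraries, the ratio of Beclo to Control was 0.00689 with a 95% exact interval of 0.00252 to 0.0151, which covers counting error only. Without Control replicate 3 the log2 fold change was -5.87 and the gene still passed the threshold. Thyroglobulin is the protein from which the thyroid follicles make thyroid hormone and is not a gene that defines macrophages.

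The list of glucocorticoid-induced genes known from mammals or zebrafish held 58 genes tested. FKBP5, KLF9 and PDK2 were upregulated, against 0.167% of all genes tested, none was downregulated and 55 did not pass the threshold. The median log2 fold change of the list was 0.29, against -0.04 over all genes tested. Of the 58 genes, 42 were above 0, against 47.3% of all genes tested. At an unadjusted p below 0.05, 17 genes of the list were higher in Beclo and 0 were lower, against 3.27% and 1.97% of all genes tested, and DESeq2 called 9 of them upregulated, against 1.02% of all genes tested. The following members were chosen after their values were seen. The gene tsc22d3, which encodes the leucine zipper protein GILZ, a mediator of the anti-inflammatory action of glucocorticoids, was at 745, 432 and 768 CPM in Beclo and at 230.3, 185 and 239.9 CPM in Control. Its groups did not overlap, but it missed the threshold (log2 fold change 1.53, SE 0.34, adjusted p = 0.14 in edgeR and 0.00014 in DESeq2). DDIT4, an inhibitor of growth signalling through mTOR, was low in all libraries, at 4.35, 3.04 and 4.21 CPM in Beclo and 0.237, 0.178 and 0.680 CPM in Control (log2 fold change 3.53, SE 0.66, adjusted p = 0.062 in edgeR and 0.0020 in DESeq2), and passed in edgeR without Control replicate 3 (log2 fold change 4.12, adjusted p = 0.029). GLUL (ENSDARG00000100003), a glutamine synthetase gene, was at 1284, 898 and 1049.6 CPM in Beclo and 200.1, 303 and 293 CPM in Control (log2 fold change 2.03, SE 0.38, adjusted p = 0.062 in edgeR and 8.3e-07 in DESeq2). SOCS3 (ENSDARG00000025428), a feedback inhibitor of cytokine receptors, was at 174, 139 and 269 CPM in Beclo and 50.3, 51.5 and 84.9 CPM in Control (log2 fold change 1.63, SE 0.32, adjusted p = 0.074 in edgeR and 4.2e-05 in DESeq2).

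Further members of that list follow, of which PER1, TXNIP and PCK1 were chosen after their values were seen. PER1 (ENSDARG00000056885) was at 6.85, 24.0 and 14.2 CPM in Beclo and 5.89, 2.85 and 7.14 CPM in Control, with overlapping groups (log2 fold change 1.38, SE 0.54, adjusted p = 0.83, edgeR). DUSP1, a phosphatase that switches off stress kinases, had 3808, 2878 and 3787 CPM in Beclo and 1605, 2975 and 1122 CPM in Control, where Control replicate 2 lay within the Beclo range (log2 fold change 0.99, SE 0.44, adjusted p = 0.93). CEBPB, a transcription factor of myeloid cells, also had overlapping groups, with 4093, 2666 and 4215 CPM in Beclo and 2452, 3240.5 and 1528 CPM in Control (log2 fold change 0.64, SE 0.44, adjusted p = 0.96). TXNIP (ENSDARG00000036107), an inhibitor of glucose uptake, had a log2 fold change of 1.34 (adjusted p = 0.27 in edgeR and 0.0036 in DESeq2) and PCK1, an enzyme of gluconeogenesis, of 1.61 (adjusted p = 0.26 in edgeR and 0.035 in DESeq2), both with groups that did not overlap. Second genes with these symbols, also chosen after their values were seen, changed less. Their log2 fold changes were -0.06 for PER1 (ENSDARG00000012499), 0.03 for TXNIP (ENSDARG00000070000) and 0.58 for SOCS3 (ENSDARG00000026611). None of them passed the threshold in edgeR.

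**Figure D4:**
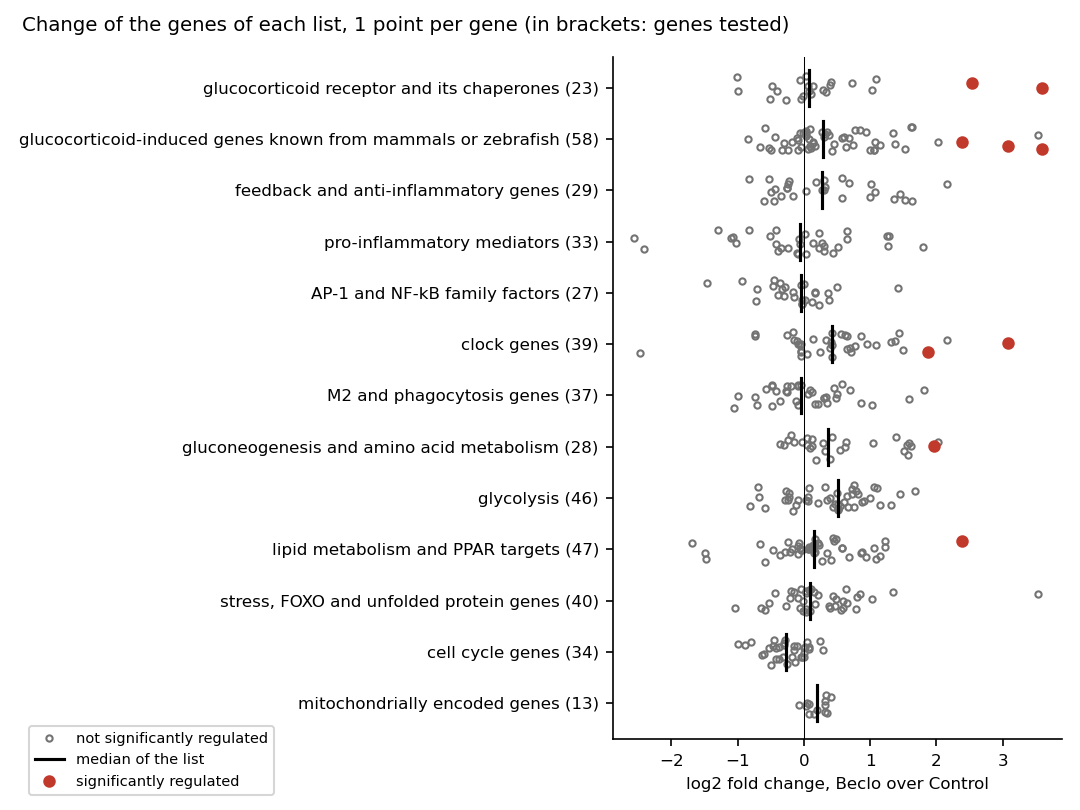
Log2 fold change of Beclo over Control for the genes tested of 13 lists, 1 point per gene, with the number tested in brackets and the median of each list as a vertical bar. Filled points mark the significantly regulated genes, which lie to the right of 1.5 in 5 of the lists, and the medians lie between -0.27 for cell cycle genes and 0.51 for glycolysis genes.

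Whether the drug lowered inflammatory genes without a wound was examined with 3 lists. Of the 33 pro-inflammatory mediators tested, 0 were significantly regulated in edgeR, with 2 higher and 5 lower in Beclo at an unadjusted p below 0.05, against 3.27% and 1.97% of all genes tested, and DESeq2 called 2 of them upregulated, against 1.02%. The median log2 fold change of the list was -0.06. The cytokine genes il1b and tnfa were also chosen after their values were seen. The gene il1b was at 93.4, 142 and 242 CPM in Beclo and at 54.9, 214 and 206 CPM in Control, so that the groups overlapped (log2 fold change 0.14, SE 0.35, adjusted p = 0.97). Its log2 fold change was -0.18 without replicate 1. The gene tnfa was below 1 CPM in the 3 Beclo libraries and at 0.190, 3.12 and 1.70 CPM in Control (log2 fold change -1.02, SE 0.93, adjusted p = 0.96). Its log2 fold change was 0.058 without replicate 2. Of the 9 chemokine genes of the list that were tested, 5 had a log2 fold change above 0 and 4 below 0, between -1.30 and 1.27, and none passed the threshold. Those with the smallest p among them include cxcl8a and ccl35.1, which were lower in each pair and were chosen after their values were seen. The neutrophil attractant cxcl8a had 6.34, 5.65 and 6.54 CPM in Beclo and 7.84, 30.3 and 14.8 CPM in Control (log2 fold change -1.30, SE 0.46, adjusted p = 0.73), and ccl35.1 had 24.2, 18.3 and 17.1 CPM in Beclo and 38.4, 75.0 and 24.8 CPM in Control (log2 fold change -1.07, SE 0.38, adjusted p = 0.73). The leukotriene genes ALOX5AP, also chosen after its values were seen, and LTA4H lay in the other direction and were the genes called by DESeq2. ALOX5AP was at 112, 68.3 and 56.4 CPM in Beclo and 27.1, 38.9 and 9.77 CPM in Control (log2 fold change 1.79, adjusted p = 0.13, edgeR). LTA4H was at 749, 655 and 769 CPM in Beclo and 324, 442 and 182 CPM in Control (1.28, adjusted p = 0.45). Both were lowest in Control replicate 3, the library with the lowest macrophage sum, and the part of cell content was not tested.

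Feedback and anti-inflammatory genes (29 tested) had a median log2 fold change of 0.27. In edgeR 0 of them were significantly regulated, with 7 higher and 1 lower in Beclo at an unadjusted p below 0.05, against 3.27% and 1.97% of all genes tested, and DESeq2 called 4 upregulated, against 1.02%. Among the 7 were tsc22d3, DUSP1, nfkbiab and SOCS3 (ENSDARG00000025428), which also belong to the glucocorticoid-induced list. The counts of these lists are therefore not independent of each other. The inhibitor of NF-κB nfkbiab was at 822, 556 and 833 CPM in Beclo and at 257, 597 and 277 CPM in Control, with overlapping groups (log2 fold change 1.07, SE 0.42, adjusted p = 0.84). The AP-1 and NF-κB family factors (27 tested) had a median of -0.04, equal to that of all genes at this precision, and 0 were significantly regulated in edgeR or DESeq2, with 0 higher and 1 lower in Beclo at an unadjusted p below 0.05, against 3.27% and 1.97% of all genes tested.

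Genes linked to alternative activation and phagocytosis (37 tested) had a median log2 fold change of -0.05, and 0 were significantly regulated in edgeR, with 2 higher and 1 lower at an unadjusted p below 0.05, against 3.27% and 1.97% of all genes tested, and 2 called upregulated by DESeq2, against 1.02%. Those called by DESeq2 were CXCR4 (ENSDARG00000041959), a chemokine receptor gene at 1539, 1059.6 and 1229.7 CPM in Beclo and 417, 664 and 169 CPM in Control (log2 fold change 1.81, SE 0.45, adjusted p = 0.24 in edgeR), and the arginase gene ARG2, chosen after its values were seen (log2 fold change 1.59, SE 0.38, adjusted p = 0.18 in edgeR). The mannose receptor gene mrc1b was at 359.8, 1109.6 and 592 CPM in Beclo and at 633, 317 and 154 CPM in Control, with overlapping groups (log2 fold change 1.03, SE 0.53, adjusted p = 0.96), and its log2 fold change was 1.87 without replicate 1. The apolipoprotein gene apoeb had 8795, 3764 and 4248 CPM in Beclo and 5726, 4990.1 and 1911 CPM in Control (log2 fold change 0.46, adjusted p = 0.96). MPEG1 (ENSDARG00000055290), a macrophage perforin gene chosen after its values were seen, was at 1547, 1268 and 768 CPM in Beclo and at 1788, 2681 and 650.0 CPM in Control (log2 fold change -0.35, SE 0.39, adjusted p = 0.96). Its log2 fold change was 0.0019 without replicate 2. MPEG1 does not stand for the macrophage markers as a list. Of the 39 tested, 24 had a log2 fold change above 0, against 47.3% of all genes tested, with a median of 0.21. At an unadjusted p below 0.05, 5 of them were higher and 1 was lower in Beclo, against 3.27% and 1.97% of all genes tested.

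Of the metabolic lists, gluconeogenesis and amino acid metabolism (28 tested, median 0.36) held AGXT as a called gene, and lipid metabolism (47 tested, median 0.15) held PDK2. Of all genes tested, 0.167% were upregulated. Over all genes tested, 3.27% were higher and 1.97% lower at an unadjusted p below 0.05, which is the background of each count at this p that follows. Of the gluconeogenesis and amino acid list, 9 genes were higher in Beclo at this p and 0 were lower. Among the 9 were GLUL (ENSDARG00000100003) and PCK1, which also belong to the glucocorticoid-induced list, as does PDK2. Of the lipid list, 6 were higher and 1 was lower. That lower gene was PLIN2, a lipid droplet coat protein, chosen after its values were seen and at 8.33, 11.9 and 6.26 CPM in Beclo and 20.8, 59.7 and 10.6 CPM in Control (log2 fold change -1.48, SE 0.40, adjusted p = 0.31 in edgeR and 0.034 in DESeq2), and its log2 fold change was -2.18 without Control replicate 3 alone. DESeq2 called 6 genes of the gluconeogenesis and amino acid list upregulated and 0 downregulated, and 1 of the lipid list in each direction. Over all genes tested its shares were 1.02% upregulated and 0.0678% downregulated. Glycolysis genes (46 tested) had the highest median of the 13 lists, at 0.51. Of the 46, 34 were above 0, against 47.3% of all genes tested. In edgeR 0 of them were significantly regulated, while 9 were higher and 0 lower at an unadjusted p below 0.05. DESeq2 called 4 of them upregulated, against 1.02% of all genes tested. The pyruvate kinase gene PKM (ENSDARG00000099730) was at 1929, 1323 and 1776 CPM in Beclo and 752, 938 and 599 CPM in Control (log2 fold change 1.14, SE 0.38, adjusted p = 0.62 in edgeR and 0.044 in DESeq2), and hif1al, of the hypoxia-inducible factor family, was at 1593, 1331 and 1414 CPM in Beclo and 442, 555 and 377 CPM in Control (log2 fold change 1.67, SE 0.36, adjusted p = 0.13 in edgeR and 2.3e-05 in DESeq2). Muscle cells are rich in glycolysis transcripts, and 26 of the 31 muscle markers were above 0 in the same comparison, with a median of 0.62. Their part in the level of the glycolysis genes was not tested. Stress, FOXO and unfolded protein genes (40 tested, median 0.10), cell cycle genes (34 tested, median -0.27) and mitochondrially encoded genes (13 tested, median 0.19) held 0 significantly regulated genes in edgeR. At an unadjusted p below 0.05 the stress list held 6 higher and 1 lower gene and the other lists held 0. DESeq2 called 2 stress genes upregulated and 1 downregulated, against 1.02% and 0.0678% of all genes tested.

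The drug effect in unwounded larvae was then set beside that in wounded larvae. Amp+Beclo and Amp share no library with Beclo and Control, and their CPM were scaled separately. In wounded larvae, 65 of 21742 genes were significantly regulated by the drug (0.299% of the genes tested), of which 56 were upregulated (0.258%) and 9 were downregulated (0.0414%). All of the 38 genes from unwounded larvae were tested there, and all 38 had the same direction, in a comparison in which 56.6% of all genes tested had a log2 fold change above 0 and the median over all genes was 0.14. Of the 38, 17 passed the threshold in wounded larvae as well, which is 44.7% of the genes regulated in unwounded and 26.2% of those regulated in wounded larvae, and 33 had an unadjusted p below 0.05, against 9.23% of all genes tested. The calls in wounded larvae rest on the replicate block, since without it 2 genes passed there, kif9 and prg4b, both among the 38. The median log2 fold change of the 37 upregulated genes was 2.00 in wounded larvae, with a range from 0.13 to 4.80, and 27 of them had a smaller and 10 a larger fitted change there than in unwounded larvae. The 38 genes had been selected for their change in unwounded larvae, so a smaller value in the wounded larvae is no measure of the wound. The number of genes regulated in wounded larvae was 0 without replicate 1 (3813 genes at an unadjusted p below 0.05; DESeq2 called 91 with all replicates), 9 without replicate 2 and 14 without replicate 3, and 0, 6 and 9 of these were among the 38.

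**Figure D5:**
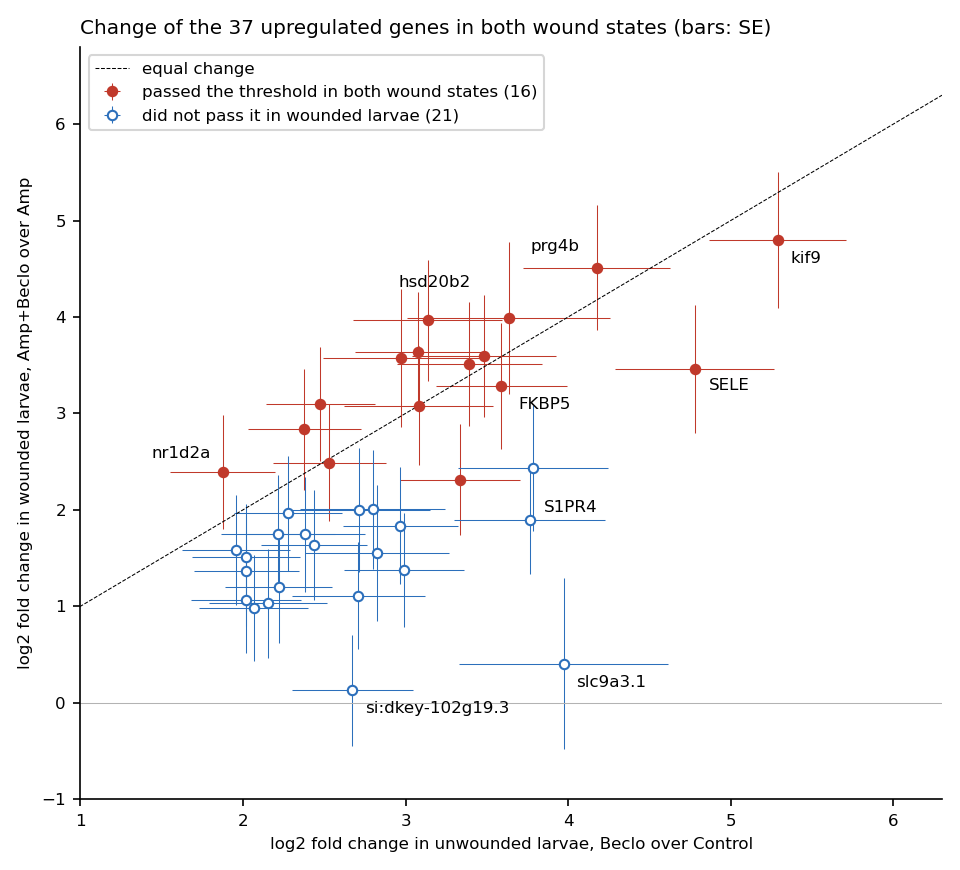
Log2 fold change of the 37 upregulated genes in unwounded larvae (Beclo over Control, horizontal axis) and in wounded larvae (Amp+Beclo over Amp, vertical axis), with bars of 1 SE and a dashed line of equal change. Filled points are the 16 genes that passed the threshold in both comparisons, among them kif9 and FKBP5, and open points the 21 that did not pass in wounded larvae, with si:dkey-102g19.3 and slc9a3.1 nearest to 0.

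Genes raised in both wound states included FKBP5, which was at 1619, 1235 and 1114 CPM in Amp+Beclo and at 179.7, 99.9 and 134 CPM in Amp (log2 fold change 3.29, SE 0.65, adjusted p = 0.00089, edgeR). The Amp+Beclo and Amp libraries did not overlap. KLF9 had 86.8, 84.7 and 83.9 CPM in Amp+Beclo and 12.8, 4.08 and 5.88 CPM in Amp (log2 fold change 3.64, SE 0.62, adjusted p = 1.9e-05), and kif9 had 39.5, 25.7 and 10.0 CPM in Amp+Beclo and 0.699, 0.907 and 0.823 CPM in Amp (log2 fold change 4.80, SE 0.71, adjusted p = 1.2e-07). The steroid enzymes HSD11B2, hsd20b2, SRD5A2 and ugt5a1 passed the threshold in wounded larvae too, with log2 fold changes of 2.49, 3.96, 2.31 and 3.57, whereas fdx1 (1.63, adjusted p = 0.28) and POR (1.96, adjusted p = 0.16) did not. The other upregulated genes that passed in both states were SELE, prg4b, lamb3, f5, RHCG, nfil3-6, hhipl1, itga6b and nr1d2a. TG had 2, 3 and 3 reads in Amp+Beclo and 7, 7 and 298 reads in Amp, so that most of the Amp reads came from Amp replicate 3 (log2 fold change -3.77, SE 0.98, adjusted p = 0.047).

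Whether the effect differed between the wound states was tested by the interaction in a fit of all 12 libraries. Of 21979 genes, 0 had an adjusted p below 0.05 in edgeR, 2389 had an unadjusted p below 0.05 (10.9%), and DESeq2 gave 5 genes (0.0227%), none of which was among the 38. Among the 38 genes, 6 had an unadjusted p below 0.05 for the interaction in edgeR, against 10.9% of all genes tested. The smallest adjusted p among the 38 was 0.45. The 6 genes were si:dkey-102g19.3 (unadjusted p = 0.00074), S1PR4 (0.0032), susd1 (0.0065), mid1ip1l (0.013), slc9a3.1 (0.019) and SELE (0.043), all with the smaller change in wounded larvae. The interaction fit includes the 6 libraries by which the 38 genes were selected. A smaller change in wounded larvae is therefore no measure of the wound here either. The gene si:dkey-102g19.3 was at 69.7, 117 and 46.8 CPM in Amp+Beclo and at 29.1, 102 and 99.6 CPM in Amp, so that its groups overlapped (log2 fold change 0.13, SE 0.58, adjusted p = 0.95). S1PR4 was at 40.3, 75.5 and 39.7 CPM in Amp+Beclo and at 8.44, 19 and 14.7 CPM in Amp, with no overlap but a smaller ratio than in intact larvae (log2 fold change 1.89, SE 0.56, adjusted p = 0.14). The exchanger gene slc9a3.1 was at 0.599, 3.72 and 4.65 CPM in Amp+Beclo and at 7.63, 2.27 and 0.117 CPM in Amp, with no common direction in the 3 pairs (log2 fold change 0.40, SE 0.89, adjusted p = 0.89).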

How the data were processed

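RNA of sorted mCherry-positive cells was amplified (SMART-seq V4) and sequenced as reads of 50 nucleotides. The deposited files hold raw read counts per Ensembl gene, which the authors made by mapping to GRCz10 with TopHat2 2.1.0, and the counting program is not given in the sources used here. The authors' own test used DESeq 1.26.0 in a paired analysis. Here the counts were tested with edgeR 4.0.16 (R 4.3.3, TMM, glmQLFit and glmQLFTest, Benjamini-Hochberg adjustment) on the 3 Beclo and 3 Control libraries, with the replicate number as a block, after removal of genes with fewer than 30 reads over the 6 libraries (60 over the 12 libraries for the interaction). Rows that name no gene were left out of library sizes and tests, and reads outside genes were 7.68 to 12.6% and ambiguous reads 1.80 to 2.11% of the total. The depth was 11023085 to 18865019 reads on genes, and as no molecular identifiers were used, intervals cover counting error only. Replicates of a group differed by more than sampling noise in every pair (chi-square per degree of freedom of 21.1 or more). The SE given with an edgeR log2 fold change is the absolute log2 fold change divided by the square root of the F statistic of its test.

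The genes named are the downregulated gene and the 25 upregulated genes with the largest change, with values per sample, the remaining regulated genes, the receptor gene, and the regulated or most highly expressed members of gene lists, and any other gene is said to be chosen after its values were seen. The members and lists were chosen with earlier results of these data known. Some genes belong to more than 1 list, so the counts of different lists are not independent. Symbols came from a gene name table that covered 26121 of 31962 gene identifiers, 1706 symbols belong to more than 1 identifier, and 51 of 743 list entries found no gene. Alternatives were DESeq2 1.42.0, RLE size factors, other filters, no block, no fold cutoff, all 12 libraries in a single fit and leaving out each replicate. Leaving out Control replicate 3 alone was added after seeing the data. The tests were also run on simulated counts with known changes. Those counts held no replicate effect and no outlying library, so that run cannot judge the replicate block or the cell content.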

Additional observations from a re-analysis of the deposited data

Results flagged for a closer look

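In 2 genes of renal and ionocyte salt transport the fitted change had opposite directions in the wound states, with all 3 pairs higher in unwounded and all 3 pairs lower in wounded larvae, and both were chosen after their values were seen. The pattern was looked for only among the genes named here. How many of all genes tested show it was not counted. The sodium-chloride cotransporter gene SLC12A3 (ENSDARG00000013855) had 6.12, 8.60 and 22.2 CPM in Beclo and 0.0475, 0.267 and 6.03 CPM in Control, a log2 fold change of 3.89 (adjusted p = 0.078 in edgeR and 5.3e-06 in DESeq2). Its Control libraries held 1, 3 and 71 reads. In wounded larvae SLC12A3 had 0.0749, 16 and 0 CPM in Amp+Beclo and 31.1, 17.5 and 6.58 CPM in Amp, a log2 fold change of -4.57 (adjusted p = 0.00089, edgeR). These values come from 1, 168 and 0 reads in Amp+Beclo and 579, 154 and 56 reads in Amp, so that pair 2 was nearly equal. The chloride channel gene clcnk had 2.58, 4.08 and 10.2 CPM in Beclo and 0.190, 0.178 and 2.04 CPM in Control (log2 fold change 3.28, adjusted p = 0.062 in edgeR and 0.00083 in DESeq2), and 0.0749, 2.86 and 0.182 CPM in Amp+Beclo and 6.18, 4.76 and 5.99 CPM in Amp (log2 fold change -3.50, adjusted p = 0.022 in edgeR). The interaction had an unadjusted p of 0.024 for SLC12A3 and 0.00075 for clcnk, with an adjusted p of 0.451 for both in edgeR. Without Control replicate 3 alone the unwounded log2 fold change was 6.45 for SLC12A3 and 4.85 for clcnk. The part of transcripts of other tissues in the changes of SLC12A3 and clcnk was not tested.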

How the results depend on the processing

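The 38 genes regulated in unwounded larvae were 241 with DESeq2, 60 with RLE size factors, 138 with no filter on low counts, 116 with at least 10 reads in every sample and 61 without Control replicate 3 alone, an alternative added after seeing the data, and 6 to 100 when a replicate number was left out. In wounded larvae the 65 genes were 2 with no replicate block (both among the 38), 21 with at least 10 reads in every sample, 26 with all 12 libraries in a single fit and 0 to 14 when a replicate number was left out. The interaction gave 5 genes with DESeq2 and 0 in the edgeR alternatives. The cause of these differences was not tested. Of the 38 genes, all passed with DESeq2, RLE size factors and no filter, 33 with all 12 libraries and 33 with at least 10 reads, where the other 5 were not tested. Directions changed when a replicate was left out for il1b (-0.18 to 0.48), tnfa (-2.11 to 0.058) and MPEG1 (-0.65 to 0.0019), all log2 fold changes. Whether the replicate numbers pair the libraries could not be settled from 3 libraries per group. Deviations from the group means correlated at -0.0711 to 0.224 for Beclo and Control libraries with the same number. With different numbers the range was -0.2 to 0.249. For Amp+Beclo and Amp the ranges were -0.195 to 0.256 with the same number and -0.416 to 0.359 with different numbers. The replicate block was kept as the study used a paired analysis, and without it 32 genes were regulated in unwounded larvae, 30 of them among the 38, while lamb3 had an adjusted p of 0.53 and HSD11B2 of 0.072 (edgeR).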
